A study of Mus musculus with 4 samples.

Results

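The genes of cholesterol and fatty acid synthesis were described in mouse blastocysts that differed in ploidy and in origin. They are 34 genes chosen by name for their place in these pathways: 18 enzymes of the sterol branch, 10 enzymes of the fatty acid branch, and 6 regulators and carriers of sterols. The choice was made with earlier results of these data known. Shares set beside those of all genes below are therefore descriptions and not an independent test. All probe sets that the platform annotation assigned to a single one of these genes were taken, which gave 77 of the 45037 probe sets that are not array controls, for 33 of the 34 genes. Acat2 was not analysed here. Signals were low for 13 of the 77 probe sets, which did not reach the median of their array on at least 2 arrays. The other 64 were tested, 31 for sterol enzymes, 22 for fatty acid enzymes and 11 for regulators, and every one of the 33 genes had at least 1 of them. A gene stands below by its tested probe set with the highest mean signal. Those of Fdft1, Hsd17b7, Acly and Elovl5 carry the platform's mark for probes that can match other transcripts (_x_at), and those of Mvd, Lss and Acsl3 the mark for probes shared by several transcripts (_s_at).

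The 4 arrays were hybridised with RNA from blastocysts at 96 hours (day 4). In the parthenogenetic embryos an oocyte develops without sperm, so that all chromosomes are maternal, and the fertilized embryos developed from zygotes. The diploid embryos of each origin were set beside tetraploid embryos, which the labels describe as made by fusing embryos of that origin. Each of the 4 conditions was 1 pool of 30 embryos on 1 array, so no condition has a replicate. The labels give neither the mouse strain nor the way the oocytes were activated, and name no transgene or treatment. The series uses the tetraploid embryos in place of a repeat of the diploid ones and asks how parthenogenetic embryos differ from fertilized ones. The origin test below uses the ploidies as repeats in the same way, while the ploidy test uses the origins as repeats. The residual of the ploidy test is how far the ploidy difference varied between origins. In both tests a p-value reflects only how far these 4 arrays vary, which may be technical.

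Cholesterol is built from acetyl-CoA through mevalonate, isoprenoid units, squalene and lanosterol, and the last steps trim lanosterol to cholesterol. Fatty acids are built from the same acetyl-CoA, which ATP citrate lyase supplies in the cytosol, and are then lengthened and desaturated. When membrane sterol falls, SCAP carries the transcription factor SREBP from the endoplasmic reticulum to the Golgi, where it is cut and released, while INSIG proteins hold the complex back when sterol is plentiful. SREBP2, the product of Srebf2, acts mainly on sterol genes, and SREBP1c, a product of Srebf1, mainly on fatty acid genes. Dividing cells of the embryo need both sterols and fatty acids for new membrane.

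MAS5 signals on the 4 arrays had been scaled to the same trimmed mean, so values compare a transcript's share of the signal and not its amount per embryo or per cell. Pairs of values below are given with diploid before tetraploid signals and parthenogenetic before fertilized embryos. The control floor of an array (99.7 to 150.3) is the level below which 95% of 27 bacterial probe sets not described as spiked in fell, and 47.1% to 55.4% of probe sets exceeded it. The 7 trophectoderm markers were above it on every array, with summed signals of 82206 to 93608. Summed signals of the 6 epiblast markers were 10098 and 5392 on the parthenogenetic diploid and tetraploid arrays and 11309.8 and 9722 on the fertilized ones. For the 6 primitive endoderm markers they were 28148 and 14802, then 31126 and 27611. Fewer cells of a type and less RNA per cell cannot be told apart in such pools. Of 9 cumulus and granulosa cell markers, 1 to 5 were above the floor, with summed signals of 723 to 1285, and Amh, Fshr and Inhba were at or below it on every array. Of 8 oocyte markers, 0 to 2 were above it, with summed signals of 364 to 978, and Zp1, Zp2, Mos and Nlrp5 were at or below it on every array.

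**Figure D1:**
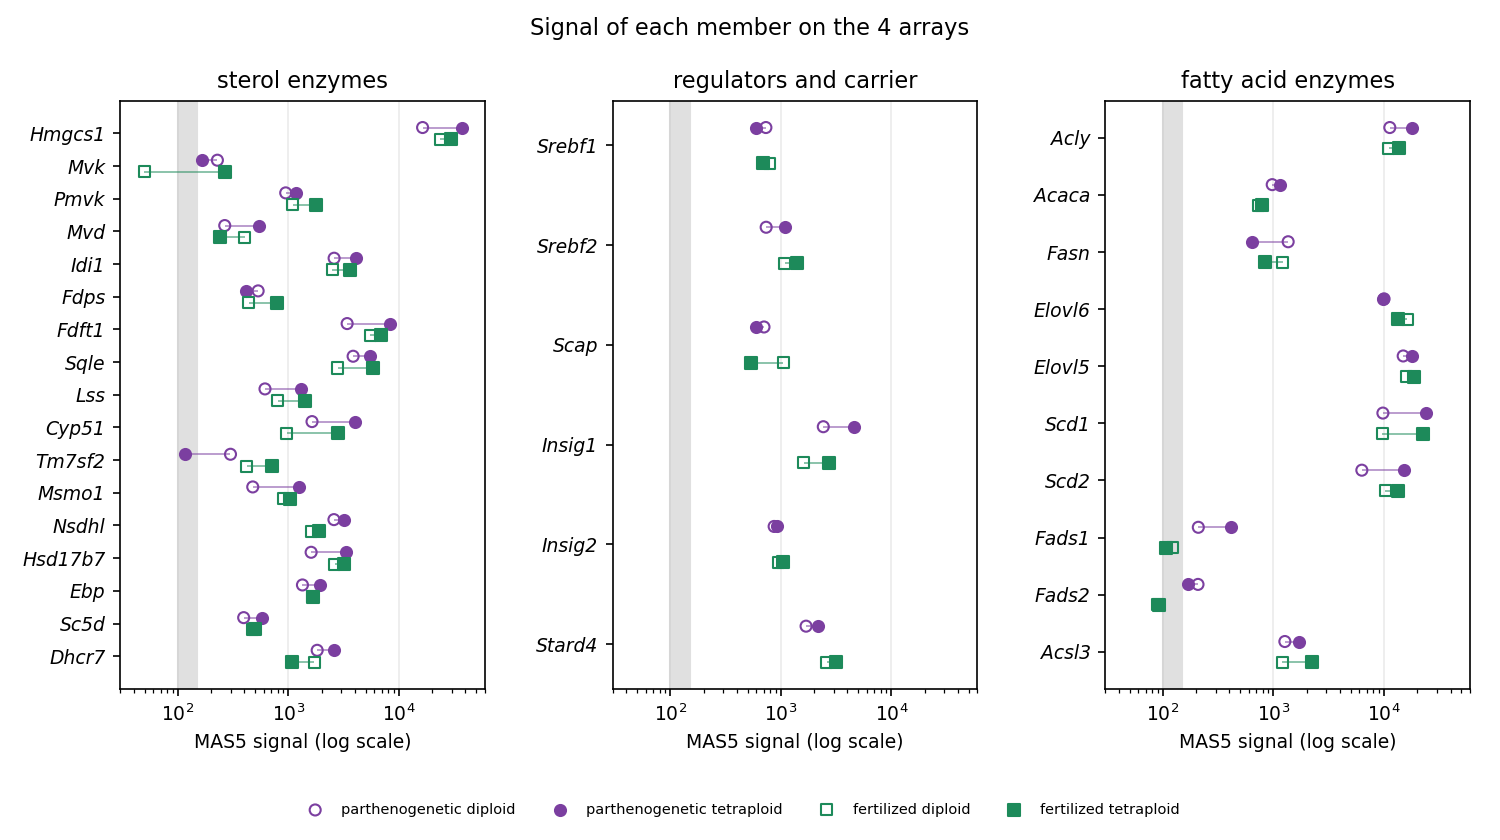
MAS5 signal of the 33 measured genes on each array, on a log axis, with circles for parthenogenetic and squares for fertilized embryos, open for diploid and filled for tetraploid, and the control floors of the 4 arrays (99.7 to 150.3) in grey. Most sterol enzymes have the filled mark to the right of the open one in both origins, and Mvk, Tm7sf2, Fads1 and Fads2 reach down to the floor on at least 1 array.

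Sterol enzymes had higher signals in tetraploid than in diploid blastocysts in most cases. Of the 17 measured, 14 were higher in parthenogenetic and 15 in fertilized tetraploids, and 12 were higher in both (11 after quantile normalization, where Ebp turned lower in fertilized embryos), against 23.7% of all 11404 genes tested. The median log2 difference was 0.55 in parthenogenetic and 0.34 in fertilized embryos, where all genes had medians of -0.019 and -0.066. None of the 17 was lower in both origins, where 3378 of all 11404 genes were. At least 2-fold higher were 7 of 17 in parthenogenetic tetraploids, beside 9.53% of all genes, and 3 of 17 in fertilized ones, beside 5.73%.

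No single gene passed the test. In limma's fit of tetraploid against diploid with origin as a covariate, which leaves 1 residual degree of freedom, 0 of the 64 probe sets had an adjusted p under 0.05, and the same was true of all 23746 probe sets tested (0%, with 1424 at an unadjusted p under 0.05). At an unadjusted p under 0.05, 8 sterol enzymes were higher in tetraploids, namely Hmgcs1, Idi1, Fdft1, Sqle, Lss, Cyp51, Msmo1 and Hsd17b7. With Scd1, Scd2, Acsl3 and Insig1 that makes 12 of the 33 genes, where 2.99% of all genes were higher at that p, and 1 of 33, Fasn, was lower, where 3.94% were. Scd1 passed the adjusted threshold with a pseudocount of 1, without the filter, after quantile normalization and under common median scaling, and Cyp51 under the first 3 of these. Below, a gene is therefore called higher or lower only as a comparison of its signals.

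The first steps make mevalonate and turn it into isoprenoid units. Hmgcs1, the synthase that makes the precursor of mevalonate, had the highest signals of the branch, at 16399.8 in diploid and 37464 in tetraploid parthenogenetic embryos and 23621 in diploid and 29438 in tetraploid fertilized ones. Both tetraploid signals were above both diploid ones. The share of all genes with such a separation was not counted, here or for genes below. The log2 differences were 1.19 in parthenogenetic and 0.32 in fertilized embryos (mean 0.75 ± 0.26 (SE) over both origins, adjusted p = 0.745 in limma). Of its 4 other probe sets, 3 were higher in tetraploids in both origins, with parthenogenetic differences of 0.81 to 1.17 and fertilized ones of 0.35 to 1.34. The dimmest was lower in both, with differences of -0.42 and -0.34.

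Idi1, the isomerase that interconverts the isoprenoid building blocks, read 2596 and 4108 in parthenogenetic diploid and tetraploid embryos and 2507 and 3626 in fertilized ones, in the same order. Its differences were close to each other, 0.66 and 0.53, and a further probe set gave 0.70 and 0.54. Pmvk, the kinase that adds the last phosphate before decarboxylation, was higher in both origins too, by 0.30 and 0.69.

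The other 3 genes of these steps went in opposite directions in the 2 origins. Mvk, the kinase that acts on mevalonate itself, read 228 and 165 in parthenogenetic and 49.7 and 270.0 in fertilized diploid and tetraploid embryos. The fertilized diploid signal lay below the control floor, so the fertilized tetraploid signal was at least 1.87-fold higher (the measured log2 difference was 2.23). Its other probe set was lower in tetraploids of both origins, with 2 of its 4 signals at or below the floor. Mvd, the decarboxylase that makes the isoprenoid unit, read 266 and 545 in parthenogenetic embryos and 403 and 243 in fertilized ones, so that its difference was 1.01 in the former and -0.70 in the latter. A further Mvd probe set differed by only -0.090 and 0.11. Fdps, which joins isoprenoid units to farnesyl diphosphate, had differences of -0.35 and 0.85.

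The 3 enzymes that lead from farnesyl diphosphate to lanosterol were all higher in tetraploids of both origins, with medians of 1.08 and 0.81. Fdft1, squalene synthase, read 3405 and 8276 in parthenogenetic and 5496 and 6954 in fertilized diploid and tetraploid embryos. The differences were 1.28 and 0.34 (mean 0.81 ± 0.27, adjusted p = 0.702 in limma), and a further probe set gave 0.77 and 0.37. Sqle, the epoxidase that adds the first oxygen to squalene and is a known slow step of the pathway, read 3857 and 5502, then 2807 and 5896. Here the fertilized difference, 1.07, was the larger and the parthenogenetic one was 0.51 (adjusted p = 0.66). Lss, the cyclase that makes lanosterol, read 615 and 1308, then 806 and 1416, which are differences of 1.08 and 0.81 (adjusted p = 0.694). A dimmer probe set of Lss gave 1.28 and 1.03, and another 2.49 and -0.087. The diploid signals of both lay below the control floor. By the brightest probe set of each of the 3 genes, the lower tetraploid signal was above the higher diploid signal, without a share over all genes to set beside it.

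Cyp51, the demethylase that takes the first methyl group off lanosterol, had the highest mean difference of the sterol enzymes. Its signals were 1638 and 4000.0 in parthenogenetic and 968 and 2790.2 in fertilized diploid and tetraploid embryos. By brightest probe sets it was the only measured sterol enzyme at least 2-fold higher in both origins (1.28 and 1.52 on the log2 scale), where 1.27% of all genes were. The mean difference of 1.40 ± 0.27 had an unadjusted p of 8.31e-05 and an adjusted p of 0.247 in limma. A dimmer probe set of the gene gave 0.97 and 0.81.

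The enzymes after Cyp51 trim lanosterol to cholesterol. Msmo1, the oxidase that starts removal of the methyl groups at the fourth carbon, read 477 and 1256 in parthenogenetic and 899 and 1036 in fertilized diploid and tetraploid embryos. The difference was 1.38 in the first and 0.20 in the second, although a dim probe set went the other way in parthenogenetic embryos (-0.53, with the tetraploid signal below the floor). Hsd17b7, a reductase of the same demethylation complex, read 1608 and 3297, then 2632 and 3202, and differed by 1.03 and 0.28. The dehydrogenase of that complex, Nsdhl, was slightly higher in tetraploids, with signals of 2586 and 3176, then 1627 and 1886, and differences of 0.30 and 0.21.

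Ebp, the isomerase that moves the ring's double bond, read 1342 and 1921 in parthenogenetic embryos, a difference of 0.51, and 1643 and 1661 in fertilized ones, a difference of 0.016. Sc5d, the desaturase that follows, differed by 0.55 and 0.10, and a dimmer probe set of it by 0.51 and -0.66. Dhcr7, the reductase that yields cholesterol, was higher in parthenogenetic tetraploids (1824 and 2603, a difference of 0.51) and lower in fertilized ones (1709 and 1090.0, a difference of -0.64). Tm7sf2, a sterol reductase of the endoplasmic reticulum that acts just after Cyp51, differed most between origins among these enzymes. It read 299.8 and 116 in parthenogenetic diploid and tetraploid embryos and 422 and 713 in fertilized ones. The parthenogenetic tetraploid signal lay below the floor, which makes it at least 1.99-fold lower (the measured log2 difference was -1.30), while the fertilized difference was 0.74. By brightest probe sets Tm7sf2 was the only sterol enzyme with a measured difference past 2-fold downwards, in 1 origin. Of all genes, 11% were that much lower in parthenogenetic and 9.81% in fertilized tetraploids.

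With Mvk and Tm7sf2 at these bounds, the counts past 2-fold became 7 higher and 0 lower in parthenogenetic and 2 higher and 0 lower in fertilized tetraploids, and the medians stayed as given. The differences in the 2 origins did not go together across the 17 sterol enzymes (Pearson's r = -0.32, Spearman's rho = -0.20, n = 17 genes), which share the 4 arrays and are not independent. Mvk and Tm7sf2 entered these correlations at their measured values.

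**Figure D2:**
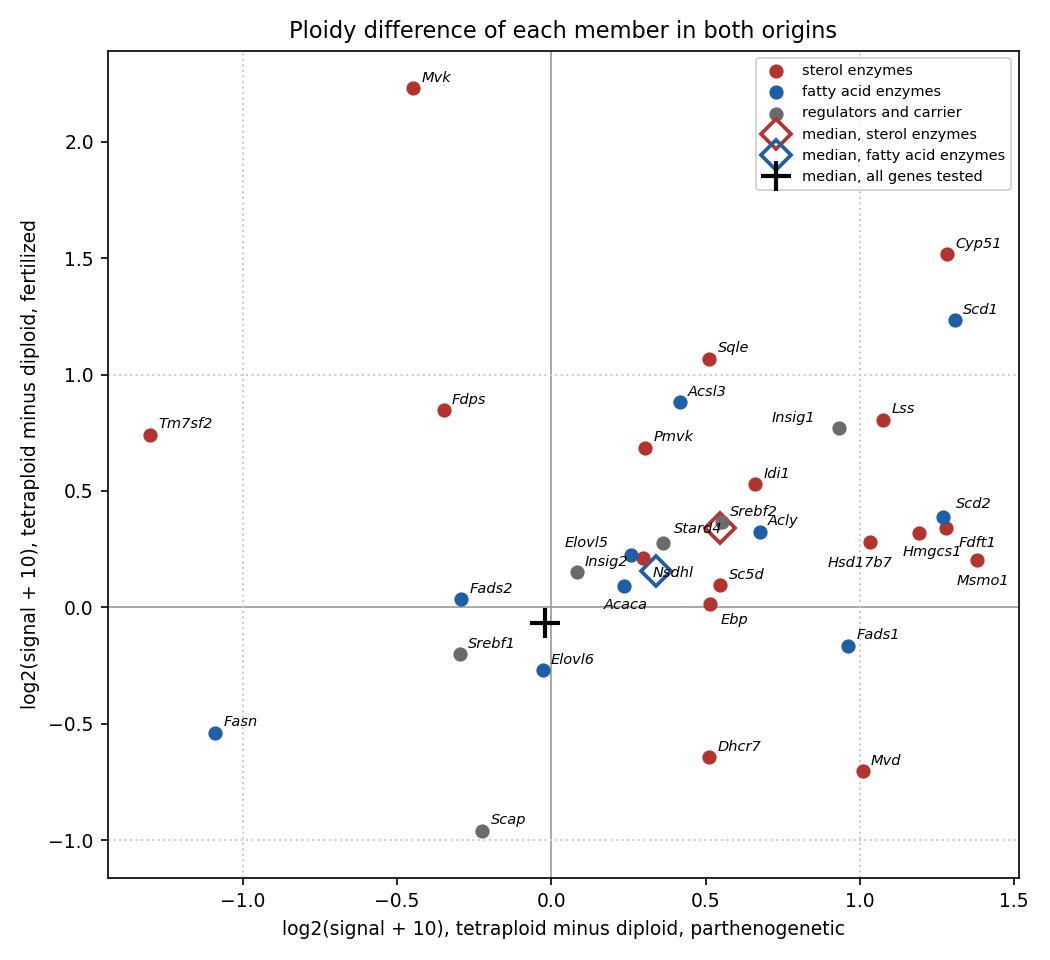
Tetraploid minus diploid difference in log2(signal + 10) of the 33 genes, parthenogenetic embryos on the horizontal and fertilized embryos on the vertical axis, with branch medians as diamonds and the median of all genes as a cross. Cyp51 and Scd1 lie past 2-fold (dotted lines) in both origins, Fasn lies below 0 in both, and the branch medians lie above and to the right of the median of all genes.

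Promoter sequence of the genes at the ends of each branch was set beside these values. RefSeq windows of 300 bases (250 before to 50 after the start, GRCm38.p6) were found for 27 of the 34 genes. Windows are printed for the sterol enzymes with the highest and the lowest mean difference, Cyp51 (chr5:4104648-4104947 on the minus strand) and Tm7sf2 (chr19:6067801-6068100 on the minus strand), for the fatty acid enzyme with the lowest, Fasn (chr11:120824498-120824797 on the minus strand), for Insig1 (chr5:28071162-28071461 on the plus strand), part of the sterol sensing complex, and for Hmgcs1 (chr13:119690101-119690400 on the plus strand), added because its window held the sterol regulatory element searched for. The fatty acid enzyme with the highest was Scd1. They run 5′ to 3′ on the gene's strand, with matches to any of 4 motifs in capitals. The first motif, searched like the others on both strands, was a form of the sterol regulatory element, TCACNCCAC. The second was CCAAT, the box bound by NF-Y. The third was GGGCGG, the GC box bound by Sp1. The fourth was CACGTG, the E-box.
Cyp51: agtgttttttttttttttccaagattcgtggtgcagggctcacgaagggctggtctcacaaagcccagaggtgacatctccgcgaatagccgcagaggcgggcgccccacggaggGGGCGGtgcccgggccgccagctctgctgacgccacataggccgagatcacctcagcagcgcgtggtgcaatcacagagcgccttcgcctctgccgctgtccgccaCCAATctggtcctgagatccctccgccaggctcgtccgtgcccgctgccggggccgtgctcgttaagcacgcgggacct
Tm7sf2: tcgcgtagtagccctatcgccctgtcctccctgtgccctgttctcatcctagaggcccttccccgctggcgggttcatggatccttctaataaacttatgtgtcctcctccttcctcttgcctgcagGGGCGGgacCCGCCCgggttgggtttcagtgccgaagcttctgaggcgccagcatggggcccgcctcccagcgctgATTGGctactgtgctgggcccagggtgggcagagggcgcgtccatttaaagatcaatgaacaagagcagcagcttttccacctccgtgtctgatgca
Fasn: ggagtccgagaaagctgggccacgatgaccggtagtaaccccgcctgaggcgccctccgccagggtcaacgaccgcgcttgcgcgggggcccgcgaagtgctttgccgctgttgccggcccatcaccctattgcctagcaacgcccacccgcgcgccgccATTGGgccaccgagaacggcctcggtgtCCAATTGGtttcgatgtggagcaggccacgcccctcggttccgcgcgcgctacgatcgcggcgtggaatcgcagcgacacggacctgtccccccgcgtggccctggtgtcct
Insig1: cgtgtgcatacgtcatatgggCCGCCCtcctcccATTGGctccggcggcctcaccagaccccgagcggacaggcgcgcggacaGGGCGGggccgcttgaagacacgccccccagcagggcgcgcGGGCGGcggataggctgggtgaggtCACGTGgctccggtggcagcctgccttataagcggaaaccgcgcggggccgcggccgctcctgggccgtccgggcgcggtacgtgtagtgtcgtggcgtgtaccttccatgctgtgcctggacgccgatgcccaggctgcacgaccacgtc
Hmgcs1: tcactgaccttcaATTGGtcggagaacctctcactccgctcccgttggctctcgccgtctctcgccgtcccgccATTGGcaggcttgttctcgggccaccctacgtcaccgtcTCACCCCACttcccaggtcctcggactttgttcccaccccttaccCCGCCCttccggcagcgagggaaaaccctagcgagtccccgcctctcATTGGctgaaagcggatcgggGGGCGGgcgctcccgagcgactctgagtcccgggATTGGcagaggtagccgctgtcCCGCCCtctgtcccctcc

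TCACNCCAC, the only form of the sterol regulatory element searched for, was found in 1.24% of all 32851 promoter windows. Among sterol enzymes it was in 1 of the 18 windows of 15 genes, that of Hmgcs1, where it lay from base -137 to base -129 relative to the start. It was in 0 of 7 windows of fatty acid enzymes and 0 of 10 of regulators. CCAAT was in 14 of 18, 4 of 7 and 5 of 10 windows of these groups, and in 37.4% of all. The Fasn window held 3 matches to it, of which a pair on opposite strands overlap and are run together in the print. GGGCGG was in 15 of 18, 3 of 7 and 8 of 10, and in 35.7% of all, and CACGTG was in 3 of 18, 1 of 7 and 3 of 10, and in 7.15% of all. Cyp51, highest in tetraploids, and Tm7sf2, with opposite signs in the 2 origins, each had CCAAT and GGGCGG. These are matches of letters only, and binding was not measured. A window without TCACNCCAC can still hold another form of the sterol regulatory element, which was not searched.

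Among the regulators, Insig1, which holds SREBP back and is itself a target of SREBP, was higher in tetraploids of both origins. It read 2419 and 4621 in parthenogenetic and 1605 and 2743 in fertilized diploid and tetraploid embryos. The differences were 0.93 and 0.77 (mean 0.85 ± 0.26, unadjusted p = 0.00444, adjusted p = 0.66 in limma). Srebf2, the sterol transcription factor, was higher by 0.55 and 0.36, and its dimmer probe set gave 0.27 and -0.30. Stard4, a soluble sterol carrier, was higher by 0.36 and 0.28. A dimmer probe set of Stard4 gave 0.68 and 0.46, and its dimmest was lower in both origins (-0.17 and -0.24). Insig2, the relative of Insig1 that does not depend on SREBP, differed by 0.082 and 0.15, and the first turned to a negative value when arrays were scaled to a common median. Its dimmer probe sets gave -0.33 and 0.094, and -0.40 and -0.0038.

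Srebf1, the fatty acid counterpart of Srebf2, was lower in tetraploids, with differences of -0.30 and -0.20, the latter turning positive under common median scaling. Scap, the escort of SREBP, read 703 and 601 in parthenogenetic and 1053 and 537 in fertilized diploid and tetraploid embryos, differences of -0.22 and -0.96. None of the 6 regulators reached 2-fold, and their medians were 0.22 and 0.21.

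Most fatty acid enzymes had higher signals in tetraploids as well. Of the 10 measured, 7 were higher in tetraploids of each origin, 6 in both, and 2, Fasn and Elovl6, were lower in both (Elovl6 turned higher in fertilized embryos under common median scaling). Of all 11404 genes, 5557 and 5176 were higher in parthenogenetic and fertilized tetraploids, 23.7% in both, and 3378 were lower in both. Medians were 0.34 and 0.16. In parthenogenetic embryos 2 were at least 2-fold higher and 1 lower, beside 9.53% and 11% of all genes. In fertilized ones 1 was higher and 0 lower, beside 5.73% and 9.81%. With 10 genes, such small 2-fold counts do not set the branch apart from all genes.

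Scd1, a desaturase that makes monounsaturated fatty acids, had the lowest unadjusted p of all 64 probe sets (6.30e-05, adjusted p = 0.246 in limma). Its signals were 9774 and 24204 in parthenogenetic and 9675 and 22744 in fertilized diploid and tetraploid embryos, so that the diploid values were nearly the same in both origins and the tetraploid values lay far above them. The differences were 1.31 and 1.23 (mean 1.27 ± 0.24), and its dimmer probe set gave 1.19 and 0.61. Scd2, its paralog, read 6305 and 15222, then 10222 and 13399, with differences of 1.27 and 0.39 (adjusted p = 0.66). Both of its dimmer probe sets were higher in tetraploids of both origins as well. Scd1 and Scd2 are close copies of each other, and how far probes of either detect the other was not tested.

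Before desaturation, Acly was higher and Fasn lower in tetraploids of both origins. Acly, ATP citrate lyase, read 11288 and 18038 in parthenogenetic and 10993 and 13774 in fertilized diploid and tetraploid embryos, differences of 0.68 and 0.33. Its next brightest probe set gave 0.50 and 0.30, and a dimmer one -0.16 and 0.57. A probe set near the floor was the only one of its 4 tested past 2-fold, with signals of 12.4 and 172 in parthenogenetic embryos, at least 1.52-fold higher against the floor. Acaca, the carboxylase that commits acetyl-CoA to fatty acids, read 975 and 1149.8, then 737 and 786, which differ by 0.24 and 0.092. Its dimmer probe set gave 0.41 and -0.36. Fasn, the synthase that builds palmitate, was lower in tetraploids, at 1358 and 633 in diploid and tetraploid parthenogenetic embryos and 1213 and 833 in fertilized ones. The differences were -1.09 and -0.54 (mean -0.81 ± 0.32, unadjusted p = 0.0205, adjusted p = 0.781 in limma).

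Of the elongases, Elovl5, which lengthens polyunsaturated chains, read 14920.0 and 17857, then 16003 and 18683, differences of 0.26 and 0.22. A dimmer Elovl5 probe set, without the _x_at mark, went the other way in parthenogenetic embryos (-0.34 and 0.19). Elovl6, which lengthens palmitate, differed by -0.029 and -0.27. A dimmer probe set of Elovl6 gave 0.023 and 0.22, and its dimmest -0.044 and -0.36. Acsl3, which activates fatty acids at the endoplasmic reticulum and lipid droplets, read 1268 and 1696 in parthenogenetic and 1201 and 2221 in fertilized diploid and tetraploid embryos, differences of 0.42 and 0.88. Its 2 dimmer probe sets disagreed with each other in sign in both origins.

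The desaturases of polyunsaturated fatty acids were dim. Fads1 read 209 and 416 in parthenogenetic embryos, a difference of 0.96, and 121 and 107 in fertilized ones, where the diploid signal lay below the floor. Fads2 read 208 and 168 in parthenogenetic embryos and 89.4 and 91.8 in fertilized ones, both below the floor, so no fold can be given there for either gene. Without these 2 genes the fertilized median of the fatty acid branch was 0.27 over 8 genes.

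**Figure D3:**
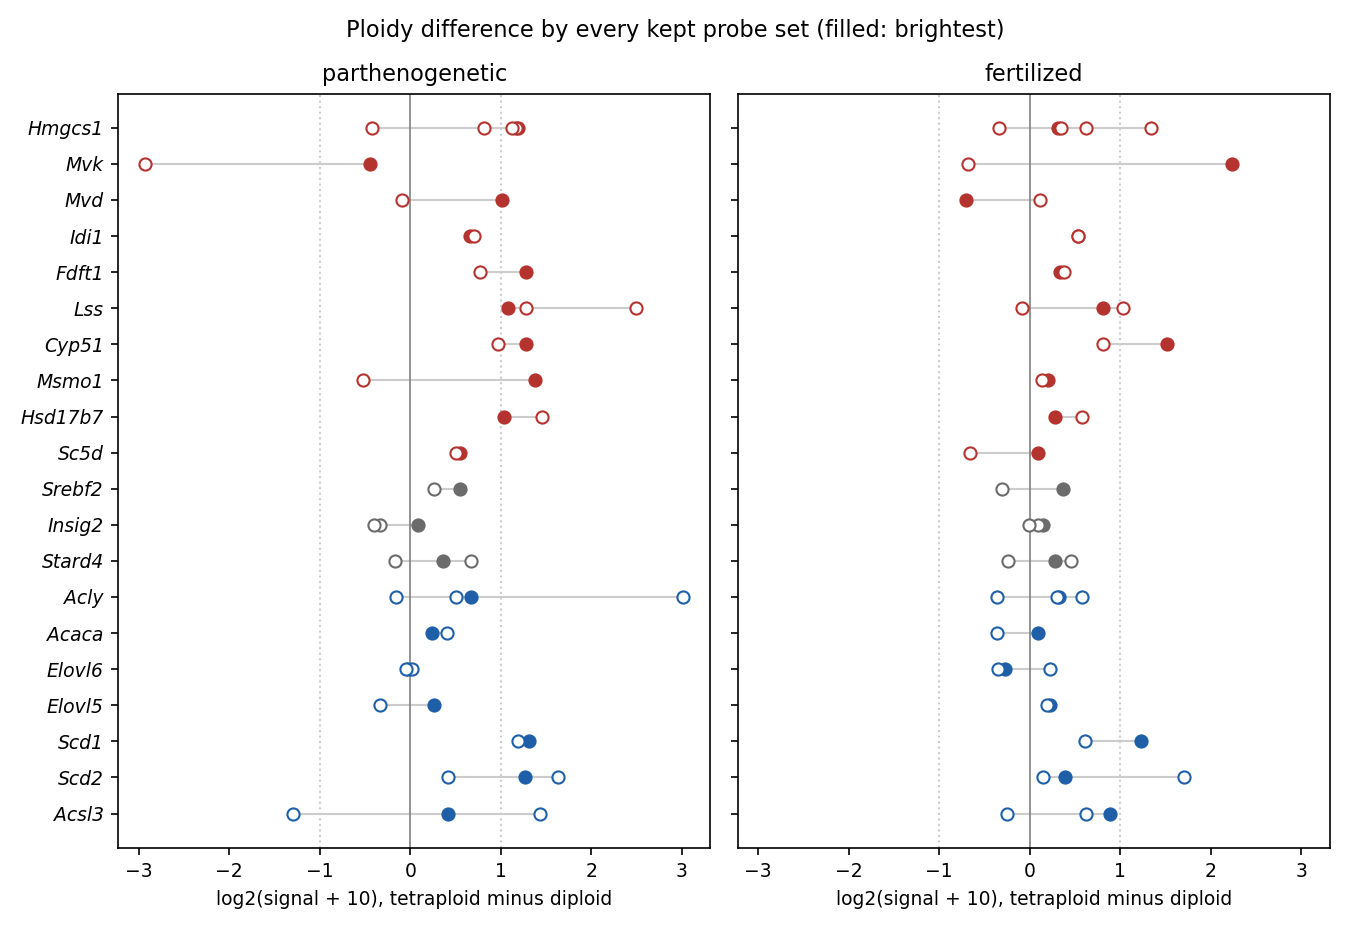
Tetraploid minus diploid difference in log2(signal + 10) for every tested probe set of the 20 genes that had more than 1, in parthenogenetic (left) and fertilized (right) embryos, with the brightest probe set filled. Probe sets of Cyp51, Idi1, Fdft1, Hsd17b7, Scd1 and Scd2 lie on the same side of 0 in both panels, and those of Mvk, Acly and Acsl3 spread over more than 2 log2 units in at least 1 panel.

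Set against each other, the sterol median exceeded the fatty acid median by 0.21 in parthenogenetic and 0.18 in fertilized embryos (0.065 with Fads1 and Fads2 left out of the fertilized median). The fertilized gap was 0.054 with a filter at the 75th percentile and 0.34 with the mean of a gene's probe sets. The parthenogenetic gap ranged from 0.18 to 0.27 over the settings tried. With 1 array a side the gap itself has no test. Between probe sets of the same gene, the median SD of the difference over 20 genes was 0.39 in parthenogenetic and 0.42 in fertilized embryos. Both branches lay above the median of all genes in both origins, sterol by 0.57 and 0.40 and fatty acid by 0.36 and 0.22. Across the fatty acid enzymes the differences in the 2 origins were correlated (r = 0.68, rho = 0.75, n = 10 genes on the same arrays). Over all 11404 genes r was 0.025 and rho 0.059. Fads1 and Fads2, for which no fertilized fold can be given, entered at their measured values.

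Several measures of the arrays differed between ploidies as well. The spiked-in hybridization controls, 18 probe sets, had median tetraploid minus diploid differences of 0.33 in parthenogenetic and -0.23 in fertilized embryos. Scaling the arrays to a common median shifted the median of all genes to -0.17 in parthenogenetic and 0.26 in fertilized embryos and the branch medians with it, while their distance from all genes stayed at 0.57 and 0.41 for sterol enzymes and 0.36 and 0.23 for fatty acid enzymes. Under that scaling 4 and 7 sterol enzymes, in place of 7 and 3, were at least 2-fold higher in parthenogenetic and fertilized tetraploids. In the Actb control, the 3′ signal over that of the middle of the transcript, a sign of RNA or cDNA length, was 5.13 and 9.28 in parthenogenetic diploid and tetraploid and 7.55 and 5.55 in fertilized embryos, and that of Gapdh was 3.86 and 5.22, then 3.72 and 4.08. Epiblast markers had median differences of -0.68 and -0.16, primitive endoderm markers of -0.64 and -0.43 and trophectoderm markers of 0.041 and 0.038. Their part in the differences of the lipid genes was not tested.

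Other genes of lipid metabolism, listed by function, were read the same way, and 0 of them passed limma's adjusted threshold for ploidy. Of 12 further genes of sterol synthesis, sensing and uptake, 7 were tested, none differed 2-fold in either origin, and the medians were 0.069 and -0.039. Lbr, a nuclear membrane protein with the same reductase activity as Tm7sf2, read 4747 and 5435, then 5596 and 5363, and differed by 0.19 and -0.061. Of 16 further genes of fatty acid synthesis and lipid assembly, 14 were tested, with medians of 0.34 and -0.083. Me1, malic enzyme, a source of the NADPH that fatty acid synthesis uses, read 545 and 2456, then 778 and 1282, differences of 2.15 and 0.71. A dimmer Me1 probe set read 795 and 1439, then 915 and 680, differences of 0.85 and -0.42, so it was lower in fertilized tetraploids.

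Of 9 genes of sterol efflux and storage, 7 were tested, with medians of -0.012 and -0.023. Abca1, the pump that exports cholesterol, read 961 and 2638, then 600.3 and 1249.8, and was higher in tetraploids by 1.45 and 1.05. Apoe, a lipid carrier, was lower in tetraploids, with differences of -2.46 and -0.33, and its parthenogenetic tetraploid signal of 125 lay below the floor. Of 9 genes of fatty acid oxidation, 7 were tested, with medians of -0.068 and -0.089, and none was 2-fold higher in either origin. Hadha, a subunit of the mitochondrial trifunctional protein, named after its values were seen, was at least 2-fold lower in fertilized tetraploids, with signals of 336 and 152, and higher by 0.99 in parthenogenetic ones. At an unadjusted p under 0.05 in limma there were 0, 2, 2 and 0 genes in these 4 lists, beside 6.93% of all genes. By brightest probe sets they were Me1 and Acsl4, both higher in tetraploids, then Abca1, higher, and Apoe, lower.

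By origin, parthenogenetic against fertilized, 9 of the 33 genes were lower in both ploidies, beside 27.5% of all genes, and 10 higher, beside 30.8%, shares near the background. In limma's fit without a ploidy term, with 2 residual degrees of freedom, 0 of the 64 probe sets had an adjusted p under 0.05, where 0.173% of all 23746 (41) did. At an unadjusted p under 0.05 there were 6 of 64, beside 8.86% of all. The sterol median was -0.25 in diploid and 0.21 in tetraploid embryos, and the fatty acid median 0.058 and 0.14, where all genes had medians of 0.0085 and 0.050. Under common median scaling the tetraploid medians turned to -0.35 for sterol and -0.43 for fatty acid enzymes, beside -0.51 for all genes. Values by ploidy rest on 1 array a side.

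**Figure D4:**
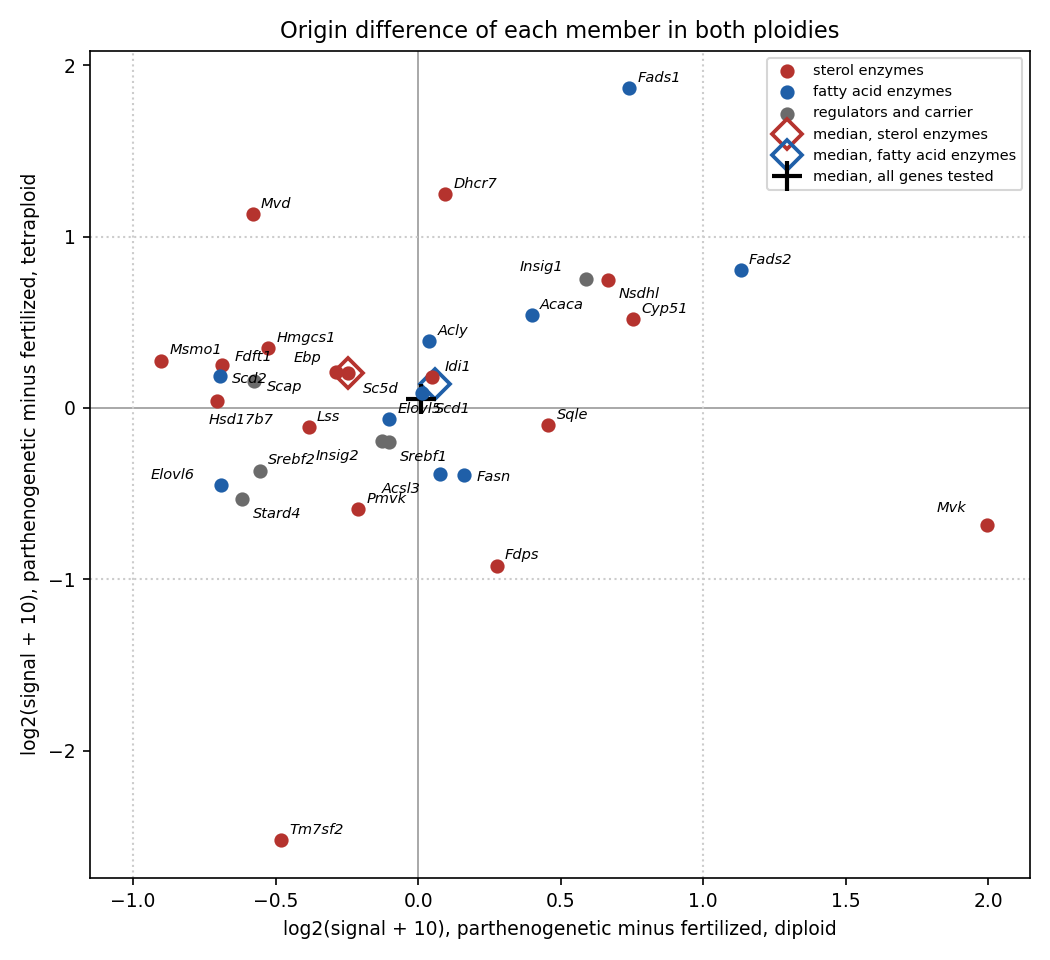
Parthenogenetic minus fertilized difference in log2(signal + 10) of the 33 genes, diploid embryos on the horizontal and tetraploid embryos on the vertical axis, with branch medians as diamonds and the median of all genes as a cross. The sterol median lies at -0.25 and 0.21, Tm7sf2 lies lowest at -2.52 in tetraploids, and Fads1 and Elovl6 lie on one side of 0 in both ploidies.

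Elovl6 was the gene nearest to the threshold. Its dimmest probe set was lower in parthenogenetic embryos of both ploidies. It read 1728 and 1675 in parthenogenetic and 4754 and 3713 in fertilized diploid and tetraploid embryos (mean difference -1.30 ± 0.28, adjusted p = 0.152 in limma). The brighter probe sets read 10016 and 9819, then 16176 and 13412, and 6299 and 6401, then 8879.7 and 10358. They were lower in parthenogenetic embryos in both ploidies too, with mean differences of -0.57 and -0.59, smaller in size than that of the dimmest. The dimmest passed the adjusted threshold with ploidy as a term in the fit, where 142 of all probe sets did, and without the parthenogenetic diploid array, where 715 did.

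Tm7sf2 had the most negative mean difference by origin, -1.50 ± 0.51 (unadjusted p = 0.0127, adjusted p = 0.447 in limma), made up of -0.48 in diploids and -2.52 in tetraploids, the latter with the parthenogenetic signal below the floor. It passed the adjusted threshold without the parthenogenetic diploid array. Fads1 was higher in parthenogenetic embryos, by 0.74 and 1.87 (unadjusted p = 0.0467, adjusted p = 0.561), with the fertilized diploid signal below the floor. The X-linked Nsdhl was higher by 0.67 and 0.75 (adjusted p = 0.532), beside medians of 0.68 and 0.85 over the 391 X-linked genes tested. Ebp, also X-linked, differed by -0.29 and 0.21. Cyp51 and Insig1 were higher in parthenogenetic embryos of both ploidies, by 0.75 and 0.52 and by 0.59 and 0.75, and the second value of Cyp51 turned to a negative one under common median scaling. Scd1 differed by only 0.015 and 0.090.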

How the data were processed

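RNA from 4 pools of mouse blastocysts was measured on 1 Affymetrix array each, after extraction and a pair of amplification rounds per the labels' protocols. The intensity that the authors deposited for each probe set is a linear MAS5 signal, per the submitters' processing notes, which name no version. The trimmed mean was the same on all arrays, and the values were used as deposited. No detection call or scan date was used, and the number of arrays limits the precision.

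From these, log2(signal + 10) was taken, and probe sets were kept where the signal reached the array's median on at least 2 of 4 arrays (23746, for 11404 genes). Of 45101 probe sets, 64 were controls, and 34958 had 1 gene symbol in the platform annotation. The tests were limma's (version 3.58.1, R 4.3.3: lmFit, eBayes with an intensity trend, Benjamini-Hochberg over all probe sets kept, threshold 0.05). The ploidy fit had origin as a covariate and 1 residual degree of freedom, and the origin fit had no covariate and 2. A plus or minus value is limma's standard error. The scripts were tested on simulated data. The control floor is the 95th percentile of 27 bacterial probe sets.

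The genes and lists were chosen with earlier results of these data known, which also holds for the tests. Genes given in full were those with a probe set at least 2-fold different between ploidies in an origin (15) and the 2 of each branch with the smallest differences (4), and Insig1, Elovl6 and others were added after their values were seen. Pseudocounts of 1 and 50, no filter, a 75th percentile filter, common median scaling, quantile normalization, the mean of a gene's probe sets, a wider sterol branch, no trend, a ploidy term and leaving out each array were tried. Coordinates are those of RefSeq promoters of GRCm38.p6, and no assembly is given for the probes.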

Additional observations from a re-analysis of the deposited data

Results flagged for a closer look

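Among the 33 genes, 7 had tetraploid minus diploid differences of opposite sign in the 2 origins, each from 1 array a side, so the difference between origins was not tested. Of the sterol enzymes, the log2 differences in parthenogenetic and fertilized embryos were -0.45 and 2.23 for Mvk, 1.01 and -0.70 for Mvd, -0.35 and 0.85 for Fdps, -1.30 and 0.74 for Tm7sf2, and 0.51 and -0.64 for Dhcr7. Of the fatty acid enzymes they were 0.96 and -0.16 for Fads1 and -0.29 and 0.035 for Fads2. Mvk in fertilized diploids, Tm7sf2 in parthenogenetic tetraploids, Fads1 in fertilized diploids and Fads2 in both fertilized pools lay at or below the control floor. The fertilized value of Fads1 turned positive under common median scaling and quantile normalization.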

How the results depend on the processing

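Of 144 recomputed values, 112 kept their direction and stayed within the spread of the main value. That spread was the SD of a branch median between origins for ploidy, and between ploidies for origin. For the sterol minus fatty acid gap, 0.19 was used. It combined the ploidy spreads of the sterol (0.15) and fatty acid medians (0.13) as if they were independent. Both medians come from the same arrays, so 0.19 is not the spread of the gap itself. The gap was 0.21 in parthenogenetic and 0.18 in fertilized embryos. Common median scaling moved the ploidy medians of sterol enzymes to 0.39 (parthenogenetic) and 0.67 (fertilized) and of fatty acid enzymes to 0.18 and 0.49. By origin it gave -0.35 for sterol enzymes in tetraploids (reversed), -0.36 over both ploidies, and for fatty acid enzymes -0.023 in diploids (reversed), -0.43 in tetraploids (reversed) and -0.34 over both. With the mean of a gene's probe sets the ploidy median of sterol enzymes over both origins was 0.30 (main value 0.60), and the origin median of fatty acid enzymes was -0.079 in diploids (reversed) and -0.085 over both. The 75th percentile filter gave 0.012 in tetraploids and -0.099 over both for that median. Quantile normalization gave 0.025 for it in tetraploids, and 0.0062 for sterol enzymes over both ploidies (reversed). Their cause was not tested.

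Leaving out each array in turn, the ploidy median over both origins ranged from 0.34 to 0.55 for sterol and from 0.16 to 0.34 for fatty acid enzymes, in each case the value of the origin left. The origin median ranged from -0.36 to 0.42 for sterol enzymes, reversed without the parthenogenetic diploid (0.42) or the fertilized tetraploid array (0.070), and from -0.17 to 0.47 for fatty acid enzymes, reversed without the same arrays (0.47 and 0.33). In limma, 2 of the genes' probe sets passed the adjusted threshold for ploidy, Scd1 and Cyp51, with a pseudocount of 1 (19 of all), without the filter (73) and after quantile normalization (62), and 1, Scd1, under common median scaling (11), where the main count was 0. For origin the count was 1, Elovl6, with ploidy as a term (142 of all), and ranged from 0 to 2 without an array, with Elovl6 and Tm7sf2 passing without the parthenogenetic diploid array (715 of all). Added after the data were seen, placing pairs at the control floor at their bound or leaving them out lowered the sterol minus fatty acid gap in fertilized embryos from 0.18 to 0.065. No pairing by replicate was possible because each condition had 1 array. The fits with origin or ploidy as a term group arrays by condition, not by replicate.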

Other observations

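The 13 probe sets of these genes that did not reach the median of their array on at least 2 arrays belong to Fdps, Fdft1, Cyp51, Hsd17b7, Sc5d, Scap, Acly, Fads1 and Fads2. The one for Cyp51 read 5.46 and 155 in parthenogenetic and 62.1 and 95.6 in fertilized diploid and tetraploid embryos.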
